A study of Drosophila melanogaster with 4 samples.

Results

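U and Uextra are the parts of the release 5 fly genome that hold sequence not placed on any chromosome arm, and their H3K4me3 peaks are described here. The peaks were all entries of the deposited peak list with U or Uextra as their sequence: 538 on U and 3580 on Uextra, 4118 of the 11572 peaks in the list. The list came from chromatin immunoprecipitation and sequencing of S2-DRSC cells, a male line of Drosophila melanogaster derived from late embryos. Chromatin was crosslinked with 1.8% formaldehyde for 15 min. A rabbit polyclonal antibody against H3K4me3 gave 2 immunoprecipitated libraries, and 2 libraries of input DNA were made from the same line, with no treatment and no second genotype.

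H3K4me3 is histone H3 carrying 3 methyl groups on its lysine 4. In flies it is laid down by COMPASS-family methyltransferases, and it marks the nucleosomes just after the start of transcribed genes, so that a typical peak covers a promoter and the first part of a gene. In release 5, U and Uextra are not chromosomes: each is many separate pieces of sequence set end to end. The pieces come mostly from repeat-rich, heterochromatic DNA, those of Uextra are the shorter and less certain ones, and some are near-copies of sequence that also lies elsewhere in the assembly. Neighbours on U or Uextra therefore need not be neighbours in the cell, and a width or a gap there is a length within this joined sequence.

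Each peak carried a start, an end and 1 score as deposited by the authors. The kind of score is not stated, so scores are given on the authors' scale. The list had no value for a single library, so there was no spread between replicates, no test was possible, and the depth was unknown. The arms 2L, 3L and 3R, with 1353, 1370 and 1693 peaks, served as the comparison. Their values one by one show how far these arms differ among themselves, not how far all sequences of the list do. Intervals are 95% and cover counting only: exact Clopper-Pearson for shares, exact Poisson for densities and order-statistic (binomial) for medians. They take peaks as independent, which neighbouring peaks are not.

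Peaks on U and Uextra were narrow, and the shortfall in width grew with the score. Over all peaks the median width was 420 bp on U (390 to 449) and 421 bp on Uextra (410 to 431), against 985 bp on 2L, 1008.5 bp on 3L and 1168 bp on 3R. The medians of U and Uextra differed by less than their intervals. At the upper end the unplaced sequences parted from each other. The 99th percentile of width was 4602 bp on U and 1270.2 bp on Uextra, against 5750 bp on the 3 arms together. Of the U peaks 17 (3.16%, 1.85 to 5.01) were wider than 2000 bp, whereas 1 of the Uextra peaks was.

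**Figure D1:**
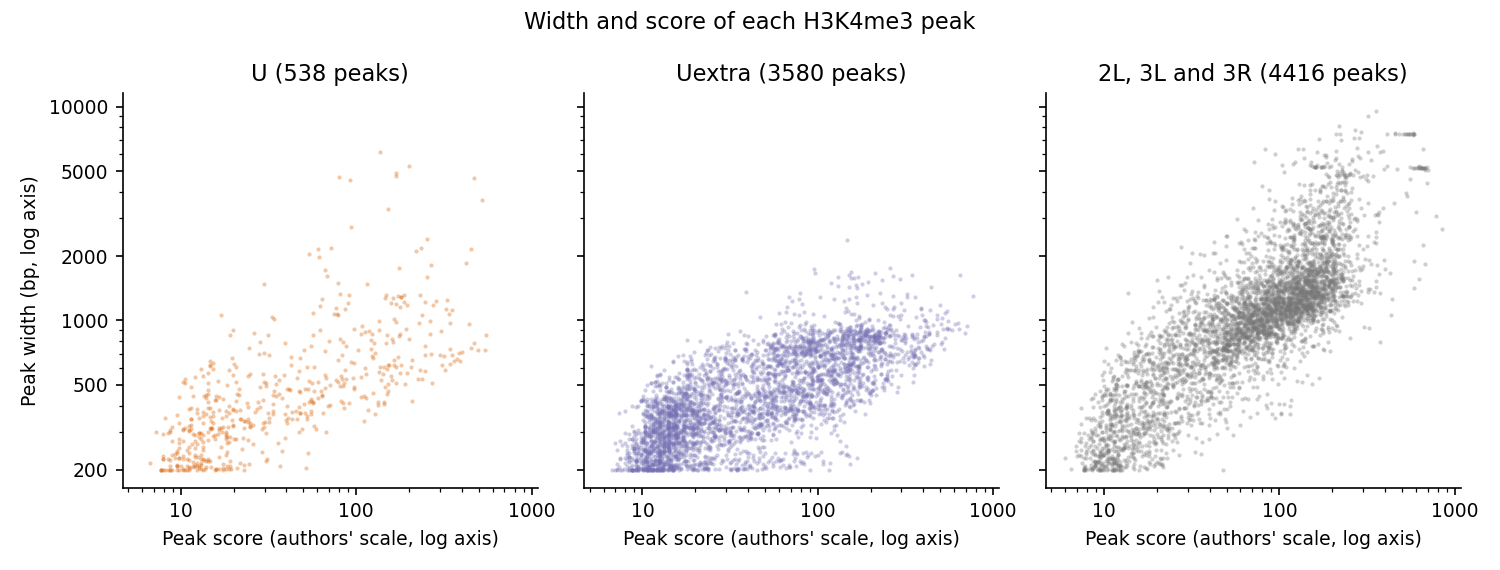
Width (bp, log axis) against score (authors' scale, log axis) for each peak of U, Uextra and the arms 2L, 3L and 3R, 1 point per peak. The Uextra cloud flattens below about 1000 bp, with 89 peaks above that width, while the arm cloud goes on upward with the score; 2 short horizontal rows of arm peaks have median widths of 5212 and 7475 bp.

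Set side by side at the same score, the 3 kinds of sequence began together and then separated. Among peaks with a score under 10 the median width was 228 bp on U (42 peaks) and 231 bp on Uextra (123 peaks), against 245 bp on the arms, ratios of 0.931 and 0.943. These weak peaks sit close to the narrowest width in the list, 200 bp, which bounds how far they can differ. From a score of 10 to 20 the medians were 297 bp on U and 302 bp on Uextra, and 356.5 bp on the arms. From 20 to 50 they were 381 bp and 377 bp, and the arm median was 694.5 bp, so that the unplaced peaks were 0.549 and 0.543 times as wide.

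The gap stayed near that size up to a score of 200 and was wider above it. From 50 to 100 the median was 532.5 bp on U (492 to 640) and 537.5 bp on Uextra (511 to 565), while the arms ran from 994 bp on 3L to 1085 bp on 3R. From 100 to 200 it was 706 bp on U and 666.5 bp on Uextra, and the arms ran from 1335 to 1414 bp. From 200 to 300 it was 865 bp on U (25 peaks, 656 to 1226) and 783 bp on Uextra (179 peaks, 734 to 813), and the arms ran from 1733 to 2786 bp. In each class from 20 upward both unplaced medians lay below all 3 arm medians.

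**Figure D2:**
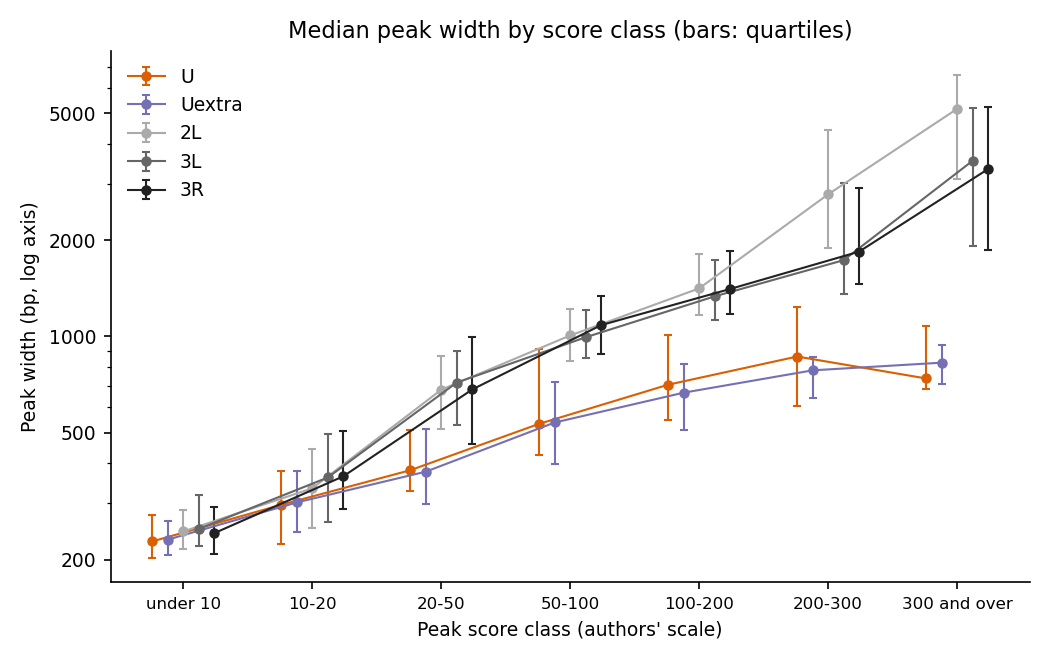
Median peak width (bp, log axis) in 7 classes of score (authors' scale) for U, Uextra, 2L, 3L and 3R; bars run from the lower to the upper quartile of the peaks in the class. The 5 sequences lie together under a score of 10, and from 20 upward U and Uextra stay below the 3 arms, with medians of 738.5 and 827.5 bp in the top class.

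The top class, a score of 300 or more, needs a separate look. Its median was 738.5 bp on U (28 peaks, 689 to 973) and 827.5 bp on Uextra (116 peaks, 773 to 860), against 4673 bp for 98 arm peaks, ratios of 0.158 and 0.177. On the arms many of these peaks had nearly the same width. There were 34 arm peaks of 5108 to 5285 bp, with a median score of 569, and 17 of 7432 to 7509 bp, with a median score of 525. Uextra had no peak in either width range and U had 1. Without the 36 such arm peaks in the top class the median of the other 62 was 2640 bp (1914 to 3232), and the ratios were 0.280 on U and 0.313 on Uextra. The width ranges were chosen after the plot of width and score was seen.

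Averaged over the score classes, with each class weighted by its unplaced peaks, a U peak was 0.593 times and a Uextra peak 0.585 times as wide as an arm peak of like score. Against the single arms the ratio ran from 0.596 to 0.605 for U and from 0.584 to 0.595 for Uextra. Peaks of mapped heterochromatin, the sequences whose names end in Het (289 peaks), are the nearest kind of sequence in the list. Their medians were 519 bp from 20 to 50, 1127 bp from 50 to 100 and 1173 bp from 100 to 200, above both U and Uextra in each of these classes. From 20 to 50 the Het median (95 peaks, 439 to 593) was itself below each arm (681 to 717 bp). From 100 to 200 it was also below each arm (1335 to 1414 bp), but its interval (45 peaks, 932 to 1453) covered all the arm medians. From 50 to 100 the Het median was above each arm (994 to 1085 bp), but its interval (50 peaks, 746 to 1392) again covered all the arm medians.

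Width followed score less steeply on the unplaced sequences. The slope of log10 width on log10 score was 0.402 on U and 0.322 on Uextra, against 0.664 on 2L, 0.592 on 3L and 0.613 on 3R, and 0.605 on the Het sequences. Over all peaks the rank order was kept nearly as well as on the arms. Spearman's rho of width and score was 0.765 on U (538 peaks) and 0.728 on Uextra (3580 peaks), and 0.784 to 0.839 on the arms. Among peaks with a score of at least 100 it was 0.315 on U (132 peaks) and 0.396 on Uextra (893 peaks). On the arms it was then 0.416 to 0.544. Peaks share libraries and depth, so these coefficients describe the list only.

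High score in a narrow peak was common on the unplaced sequences and rare on the arms. Of the Uextra peaks with a score of at least 100, 820 of 893 (91.8%, 89.8 to 93.5) were no wider than 1000 bp. On U this held for 94 of 132 (71.2%, 62.7 to 78.8), and on the arms for 150 of 1818 (8.25%, 7.03 to 9.61). At 500 bp or less the counts were 149 on Uextra (16.7%), 15 on U (11.4%) and 7 on the arms (0.385%). The Het sequences lay between, with 22 of 70 strong peaks no wider than 1000 bp (31.4%, 20.9 to 43.6) and 4 no wider than 500 bp (5.71%). The reverse kind, a peak over 1000 bp with a score under 100, made up 25 of the 63 wide peaks on U (39.7%, 27.6 to 52.8), 16 of 89 on Uextra (18.0%, 10.6 to 27.5) and 748 of 2416 on the arms (31.0%).

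Widths of the Uextra peaks thinned out quickly near 900 bp. Among its 1589 peaks with a score of at least 50, 132 were 800 to 850 bp wide, 110 were 850 to 900 bp, 50 were 900 to 950 bp and 22 were 950 to 1000 bp. Altogether 159 of the 1589 reached 900 bp. On U 70 of 218 such peaks did. At the other end Uextra held 53 peaks under 250 bp wide with a score of at least 50, U held 2 and the arms held 0. These limits were chosen after seeing the data.

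Read the other way, an unplaced peak of medium width scored higher than an arm peak of the same width. At 500 to 750 bp the median score was 87.0 on U (66.1 to 128), 84.0 on Uextra (76.5 to 90.8) and 35.4 on the arms, where single arms ran from 30.3 to 41.7. At 750 to 1000 bp it was 126 on U, 153 on Uextra and 64.5 on the arms. At 200 to 300 bp the scores were nearer, 12.7 on U, 14.6 on Uextra and 11.5 on the arms. The difference was also small for the widest U peaks: over 2000 bp their median score was 168 (17 peaks, 91.8 to 235), against 180 on the arms.

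The scores held a larger share of weak peaks than on the arms, and a like or larger share at 200 and 300. The median score was 30.6 on U (24.8 to 37.8) and 39.0 on Uextra (36.1 to 42.2), against 70.0 on 2L, 73.9 on 3L and 101 on 3R. As ratios to the 3 arms together, the 25th percentile of U stood at 0.423, its median at 0.376, its 75th percentile at 0.692, its 90th at 1.01 and its 95th at 1.30. Uextra gave 0.472, 0.479, 0.714, 0.931 and 1.05 in the same order. Among the 5786 highest-scoring peaks of the list alone, a selection by score, the median of U was 1.18 times and that of Uextra 0.985 times that of the arms. At the 99th percentile of the full list the ratios were 0.924 and 0.857, but against single arms they ran from 0.804 to 1.27 for U and from 0.746 to 1.18 for Uextra, so neither lay outside the arms.

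Counted by limits, 24.5% of the U peaks (21.0 to 28.4) and 24.9% of the Uextra peaks (23.5 to 26.4) reached a score of 100, against 33.0% on 2L, 37.9% on 3L and 50.3% on 3R. At 200 the shares were 9.85% on U (7.47 to 12.7) and 8.24% on Uextra (7.36 to 9.19), within or near the 7.98% to 9.78% of the single arms. At 300 they were 5.20% on U (3.49 to 7.43) and 3.24% on Uextra (2.68 to 3.87), above the 1.97% to 2.66% of the arms, though the interval of Uextra overlaps those of all 3 arms and that of U overlaps that of 2L (1.87 to 3.66). Weak peaks made up the difference lower down: 60.4% of the U peaks and 66.2% of the Uextra peaks reached a score of 20, against 83.8% to 85.5% on the arms. The Het sequences had scores like those of U and Uextra, with a median of 37.4 (31.6 to 48.3) and with 24.2% of their peaks at 100, 8.65% at 200 and 6.92% at 300 (4.28 to 10.5), so this pattern was not particular to the unplaced sequences.

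**Figure D3:**
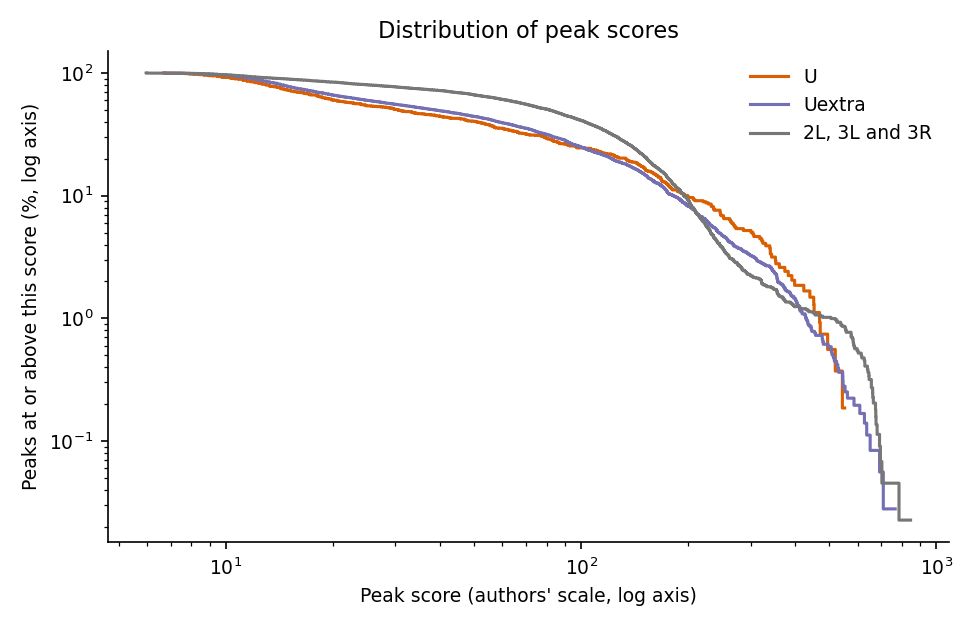
Percent of peaks at or above each score (log axis) against score (authors' scale, log axis) for U, Uextra and the arms 2L, 3L and 3R together. The lines of U and Uextra lie below that of the arms at a score of 100 (24.5% and 24.9% against 41.2%), cross it near 200 and lie above it at 300 (5.20% and 3.24% against 2.22%).

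Ranked over the whole list, unplaced peaks were found among the strongest but were nearly missing among the widest. Uextra held 174 of the 500 peaks that scored highest (34.8%) and U held 37 (7.40%), where their shares of all peaks were 30.9% and 4.65%. The 100 highest included 23 on Uextra and 4 on U, below those shares. On 2L, 3L and 3R, with 38.2% of all peaks, lay 171 of the 500 and 45 of the 100. Uextra held 0 of the 500 widest peaks and U held 9, while the 3 arms held 303.

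The strongest peaks of Uextra were of moderate width. The highest score on Uextra, 766, belonged to Uextra:1989006-1990301, which was 1296 bp wide; 2 peaks of the list scored higher. It was followed by Uextra:16755238-16756182 with a score of 709 and a width of 945 bp, and by Uextra:10766855-10767732 with a score of 692 and a width of 878 bp. Among the 10 highest of Uextra the widths ran from 878 to 1624 bp, the widest being Uextra:16973724-16975347 with a score of 651. The neighbours of the peak of 709 scored 72.6 and 22.6, at distances of 3212 and 5946 bp. The peak of 692 had a neighbour that scored 419, at 7092 bp.

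On U the 10 strongest peaks ran in width from 724 to 4649 bp. The highest, U:9465956-9466806, had a score of 552 and a width of 851 bp, and the second, U:8849901-8850628, a score of 544 and a width of 728 bp. The third, U:2637418-2641080, scored 520 but spanned 3663 bp, and the fifth, U:1092933-1097581, scored 471 over 4649 bp. Of the 10 highest on U, 6 were narrower than 1000 bp, and the other 4 were between 1850 and 4649 bp.

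The 5 widest peaks of U scored from 79.5 to 199.7, above the U median of 30.6 and below the 10 highest scores of U (424 and over). U:1880964-1887074 spanned 6111 bp with a score of 136, U:977373-982644 spanned 5272 bp with a score of 199.7, and U:239811-244491 spanned 4681 bp with a score of 79.5. All 5 of the widest lay in the first 2 Mb of U. The widest of Uextra was Uextra:12244500-12246867, with 2368 bp and a score of 147, and the next was 1756 bp wide. No gene is named for any peak, since no annotation of release 5 was used here.

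Peaks were unevenly spread along U. Its first 5 Mb held 92 peaks, 18.4 per Mb (14.8 to 22.6), with a median score of 64.8 (34.2 to 86.8) and a median width of 569.5 bp (502 to 792). From 7 to 9 Mb there were 233 peaks, 116.5 per Mb (102 to 132), with a median score of 18.0 (15.9 to 20.6) and a median width of 347 bp. From 9 to 10 Mb the density was like that, 121 peaks, but the median score was 74.4 (53.2 to 92.8) and 49 peaks (40.5%, 31.7 to 49.8) reached 100. The wide peaks lay at the start: 12 of the 17 over 2000 bp were in the first 5 Mb. The width ratio to arm peaks of like score was 0.709 in the first 5 Mb, 0.607 from 5 to 7 Mb, 0.637 from 7 to 9 Mb and 0.505 from 9 to 10 Mb. The stretches were chosen after the 1 Mb bins were seen.

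Along Uextra the median score was lower from 20 to 27 Mb than in the stretches before it, and higher again after it. These stretches, too, were chosen after the 1 Mb bins were seen. No step lay at 20 Mb: the bin medians were 30.47, 25.75 and 25.86 from 17 to 20 Mb, and 22.3 from 20 to 21 Mb. In the first 10 Mb the median score was 45.6 (39.1 to 54.7) and 30.6% of the peaks (27.8 to 33.5) reached a score of 100. From 10 to 20 Mb these values were 38.6 (32.9 to 45.9) and 26.96% (24.6 to 29.4), and from 20 to 27 Mb they were 21.6 (19.8 to 24.7) and 14.4% (12.1 to 16.9). From 27 to 28 Mb they were back at 41.9 (34.2 to 55.6) and 21.3% (14.4 to 29.6), with a width ratio to arm peaks of like score of 0.506. The median width of the first 3 stretches was 450 bp, 498.5 bp and 373.5 bp, and so did not follow the score in step. Peaks over 1000 bp numbered 60, 22 and 2 in those 3 stretches, of 1007, 1324 and 842 peaks. Among full 1 Mb bins the median score ran from 98.6 at 1 to 2 Mb to 17.4 at 25 to 26 Mb. On the arms the bin medians ran from 24.9 to 127 on 2L, from 21.3 to 148 on 3L and from 21.3 to 165 on 3R.

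The bin from 28 to 29 Mb of Uextra held 283 peaks (Poisson interval 251 to 318), where the other 28 full bins held 40 to 146. Its peaks scored high for their width. The median score was 58.3 (53.3 to 67.7) and the median width 356 bp (327 to 373), and the width ratio to arm peaks of like score was 0.374, against 0.608 over the first 28 Mb. Of the 53 narrow Uextra peaks with a score of at least 50 described above, 32 lay from 28 Mb on. Within that bin the crowding was in its latter part, with 43 peaks at 28.5 to 28.6 Mb and 47 at 28.7 to 28.8 Mb, against 11 to 22 in each of the first 5 parts of 100 kb.

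**Figure D4:**
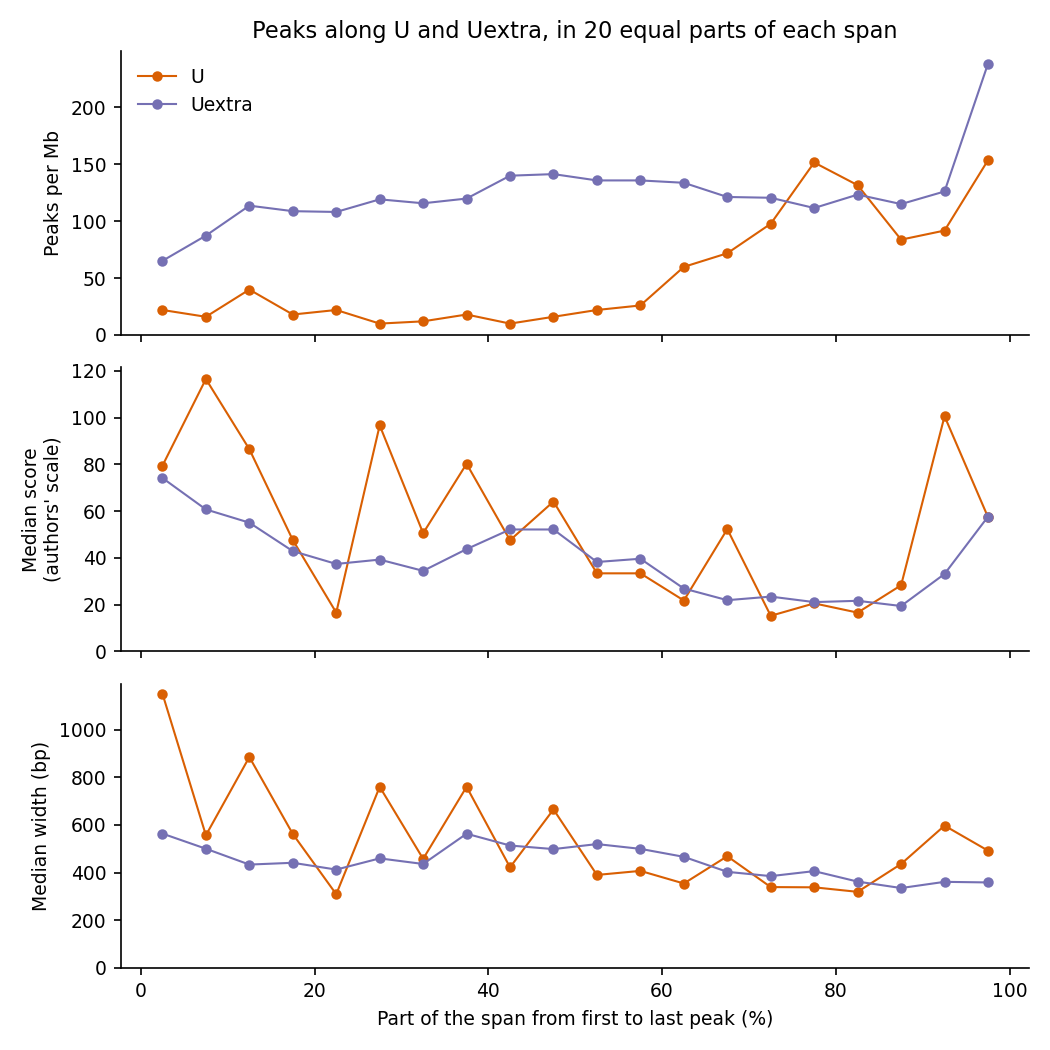
Peaks per Mb, median score (authors' scale) and median width (bp) in 20 equal parts of the span from the first to the last peak of U and of Uextra (axis in percent of the span). U is sparse over its first 60% and dense after it, and the last part of Uextra has 238 peaks per Mb against 65.1 to 141 in the others; parts of U with few peaks scatter widely, the smallest holding 5.

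Peaks on Uextra were dense but seldom close together. Uextra had 124 peaks per Mb of its span and U had 53.6 (49.2 to 58.3), against 56.1 to 60.7 on the arms. After peaks closer than 500 bp were merged, U had 44.1 regions per Mb (40.1 to 48.5) and the arms 39.8 to 41.2, so the order of U and the arms depended on how peaks were split. On Uextra 304 of 3579 gaps (8.49%, 7.60 to 9.46) were shorter than 500 bp, against 29.1% on 3L, 32.0% on 2L and 32.2% on 3R. U lay between, with 95 of 537 (17.7%, 14.6 to 21.2). At the other end the 95th percentile of the gaps was 23163 bp on Uextra and 92674 bp on U, and 76398 to 82686 bp on the arms. The gaps of Uextra were thus the more even, with an SD 1.11 times their mean, against 2.10 on U and 2.17 to 2.41 on the arms.

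**Figure D5:**
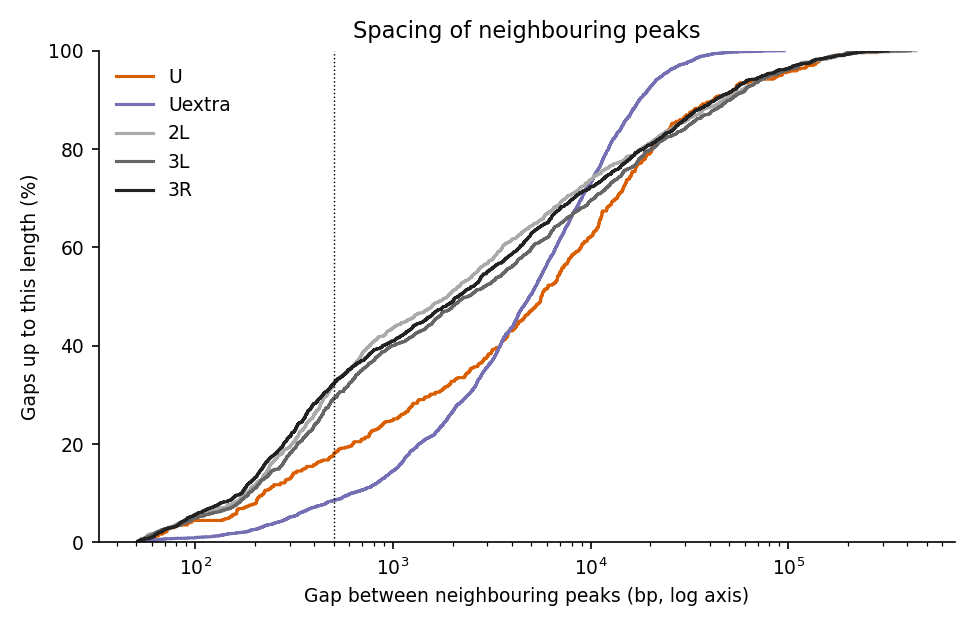
Percent of gaps between neighbouring peaks up to each length (bp, log axis) for U, Uextra, 2L, 3L and 3R; the dotted line marks 500 bp. At that line Uextra stands at 8.49%, U at 17.7% and the 3 arms between 29.1% and 32.2%, and the median gap was 4895 bp on Uextra and 5663 bp on U.

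Bins of like density gave the same order. Among 1 Mb bins with 100 to 150 peaks, a limit chosen after seeing the data, 25 lay on Uextra, and in these 1.85% to 12.8% of the gaps were shorter than 500 bp, with a median of 7.75%. In 3 such bins of U the share was 11.7% to 21.3%. Only 2 bins of 2L, 3L and 3R were as dense, with shares of 37.4% and 38.9%. The median gap in those bins was 4248 to 6814 bp on Uextra, 3805 to 5591 bp on U, and 832 and 1319 bp on the arms.

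Strong peaks were spaced in the same way. Uextra carried 30.9 peaks per Mb that reached a score of 100 (28.9 to 33.0), close to 3R (30.6, 28.5 to 32.7). U carried 13.2 per Mb (11.0 to 15.6), below 2L at 19.4 and 3L at 21.3. The median gap from one strong peak to the next was 18462 bp on Uextra and 26749 bp on U, against 5102 to 6984 bp on the arms. In all, peaks covered 6.02% of the span of Uextra and 3.23% of that of U, and 6.84% to 8.23% of the arms.

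Neighbours on Uextra differed more in score than neighbours on the arms, whether close or not. Relative to their size, scores were also more spread over all peaks there. The quartiles were 15.9 and 99.9 on Uextra, 14.25 and 96.8 on U, and 33.7 and 140 on 2L, 3L and 3R together. The part of this wider spread in the folds between neighbours was not tested. Within pairs closer than 500 bp the higher score was a median of 2.07 times the lower on Uextra, 1.66 times on U and 1.57 to 1.63 times on the arms. Between neighbours farther apart it was 2.63 times on Uextra, 2.52 times on U and 1.77 to 1.95 times on the arms. Over all neighbours, Spearman's rho between the scores of adjacent peaks was 0.072 on Uextra (3579 pairs), 0.258 on U (537 pairs), 0.172 on 2L, 0.294 on 3L and 0.226 on 3R, as a description of the list.

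Stretches without a peak were short on Uextra. The longest was Uextra:177617-272699 (95.1 kb), followed by Uextra:388315-473094 (84.8 kb), and all 3 of the longest lay in its first 0.5 Mb. On U the longest were U:538336-894007 (356 kb), U:2645551-2940702 (295 kb) and U:3942600-4226559 (284 kb), all within the sparse first 5 Mb.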

How the data were processed

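Titles of the samples gave 2 H3K4me3 immunoprecipitation libraries and 2 of input DNA. The labels do not say whether replicates came from separate cultures. Per the file headers, the build of the 1 peak list is FlyBase release 5, and its entries name MACS. BDGP5, CASAVA 1.7.0.2 and 1.7.0.3, BWA and MACS2 are named, with no role or order, in the submitters' processing notes. Not given in the sources used here were the threshold, the input used, any pooling of replicates and the treatment of reads that match several places; the part of the last in the values of U and Uextra was not tested. The score of each peak was used as deposited by the authors.

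As 1 peak started at 0, deposited starts were read as 0-based; printed positions are 1-based. Width is the end less the deposited start. Gaps ran between neighbours on the same sequence. The narrowest width was 200 bp (136 peaks) and the smallest gap 51 bp. Densities are per Mb from the first to the last peak. Classes with under 5 peaks were left out. Averaged width ratios are geometric means of class ratios of medians. The text names, on each sequence, the 10 peaks of highest score and the 5 widest, and the 3 longest stretches without a peak; those that lead are printed. The members, classes and rules were chosen with earlier results of these data known. The averaged width ratio was checked on resampled arm peaks whose widths were multiplied by a known factor. The median interval was checked on random numbers, and merging on a small made-up set of peaks. Calculations ran in Python 3.11.15 with pandas 2.3.3, numpy 2.4.6 and scipy 1.17.1, and figures in matplotlib 3.10.9. Tried as alternatives were a list of the 5786 highest-scoring peaks, a score of at least 10, merging, other limits, other comparison sequences and other forms of the width ratio. A gene table of release 6 was not used, and no genome of release 5 was used here, so no sequence is shown.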

Additional observations from a re-analysis of the deposited data

How the results depend on the processing

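The values below lay outside the counting interval of the value reported, or, for width at a given score, outside its range over single arms. That range was narrow, 0.596 to 0.605 for U and 0.584 to 0.595 for Uextra, and the reported 0.593 of U itself lay outside it. It is therefore not a measure of error, and a ratio outside it need not be a real shift. The cause of the differences below was not tested. A list of only the 5786 highest-scoring peaks is itself a selection by score. Shares at other limits or by bases are other quantities, which need not match the value reported. In that list the median score of U turned from 0.376 to 1.18 times that of the arms and that of Uextra from 0.479 to 0.985. In the same list the share of the list was 3.32% (U) and 24.9% (Uextra), the median width ratio 0.547 and 0.503, the width ratio at a given score 0.436 and 0.449, the share of gaps under 500 bp 6.81% and 3.61%, and the density 19.1 and 49.9 per Mb. On the arms in that list the share of close gaps was 21.8% to 25.5%, so the order was kept. Merging peaks closer than 500 bp gave Uextra a share of 36.4%, a median width ratio of 0.346 and 26.6% of scores of at least 100, and gave U and Uextra width ratios at a given score of 0.539 and 0.510 and densities of 44.1 and 113 per Mb. After merging, the density of U (40.1 to 48.5) was above the arms (39.8 to 41.2 per Mb), where it had been below them. Before merging, U had 53.6 per Mb (49.2 to 58.3) and the arms 56.1 to 60.7. The interval of U overlapped the range of the arms both times. By bases the shares were 2.88% (U) and 15.4% (Uextra). Against all other sequences Uextra had ratios of 0.553 for score and 0.419 for width. The width ratio at a given score was 0.613 and 0.604 with decile classes, 0.657 and 0.605 from a straight line, and 0.612 and 0.596 without arm peaks of recurring widths, the last added after seeing the data. Other limits gave gaps under 200 bp of 7.64% and 2.60%, gaps under 1000 bp of 24.6% and 14.6%, scores of at least 50 of 40.5% and 44.4%, and scores of at least 200 of 9.85% and 8.24%. On the arms these shares were 11.0% to 13.1%, 40.0% to 43.6%, 63.6% to 70.8% and 7.98% to 9.78%. U and Uextra thus stayed below the arms at all of these limits but the last. Over occupied bins of 100 kb alone U had 64.0 peaks per Mb. The other 12 values stayed within those limits.

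No paired analysis was possible because no value of a single library is in the list, and for that reason no replicate was left out. Depth is unknown, and only peaks past the authors' threshold are listed, which limits every comparison of weak peaks.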
